A study of Homo sapiens with 4 samples.

Results

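The nuclear genes of the mitochondrial respiratory chain and of ATP synthase were described on exon arrays of HepG2 and K562 cells with and without knockdown of ADAR, the deaminase that turns adenosine into inosine in double-stranded RNA. The genes were chosen by symbol alone: every single-symbol transcript cluster whose name follows the NDUF, SDH, UQCR, COX4 to COX8 or ATP5 pattern, with the brightest cluster taken for each gene. This gave 71 of the 14232 genes in the table, namely 27 subunit genes of complex I, 7 of its NDUFAF assembly factors, 3 of complex II, 5 of complex III, 15 of complex IV, 13 of ATP synthase and the pseudogene UQCRBP1. A further 16 genes whose names fit the pattern lay only in clusters annotated to several genes and are not described.

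HepG2 is a human hepatocellular carcinoma line and K562 a human chronic myeloid leukaemia line. Stable transfection had given each line a plasmid carrying either an siRNA against ADAR, the one of several that lowered it most (ADARkd), or a scrambled siRNA (SCR). Whether a transfected population was 1 clone is not stated in the labels, and nothing says that arms were cultured more than once. With 4 arrays in all, 1 per combination of line and arm, a difference between the arms of a line cannot be checked against replicates and is given without a p-value. The study asked what ADAR does to splicing, while the values used here are levels per gene, on the log2 scale of the deposited intensity, and a difference is ADARkd minus SCR.

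The respiratory chain sits in the inner mitochondrial membrane. Complex I takes electrons from NADH and complex II from succinate. Both pass them through ubiquinone to complex III, and cytochrome c carries them to complex IV, which reduces oxygen. Complexes I, III and IV pump protons, and ATP synthase lets the protons back to make ATP. Part of complexes I, III and IV and of ATP synthase is built from subunits encoded by mitochondrial DNA, while the genes described here are transcribed in the nucleus and their proteins are imported.

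ADAR stood at 8.96 in SCR and 7.27 in ADARkd on the arrays labelled HepG2, and at 7.99 and 6.78 in K562. A gene was kept in a line where its mean over that line's arrays reached the median of all genes (5.31 on the arrays labelled HepG2, 5.28 in K562), which left 7116 genes per line. The labels were set against marker lists. Of 7 measured hepatocyte markers, 0 were kept on the arrays labelled HepG2, where they ran from 2.10 to 4.89, so these arrays are called by their label alone. Their summed intensity was 78.6 in SCR and 79.1 in ADARkd there, and 84.5 and 91.1 in K562. Of 7 erythroid markers, 6 were kept in K562, with a summed intensity of 3748.3 and 3536.8 against 112.6 and 107.4 on the arrays labelled HepG2. Fibroblast markers were kept there for 6 of 9 genes and in K562 for 0. None of these markers was listed at 0.

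Of the 71 genes, 58 were kept on the arrays labelled HepG2, 56 in both lines, and 13 in neither. Those kept in neither were COX4I2, COX6A2, COX6B2, COX7A1, COX7B2 and COX8C, which are isoforms of complex IV subunits known from muscle, lung, testis or other specialised tissues, and ATP5MGL, ATP5PD, NDUFB3, NDUFS4, NDUFAF2, NDUFAF5 and UQCRBP1. The general complex IV subunits COX4I1, COX6B1, COX7A2, COX7B and COX8A were kept in both lines. SDHC and NDUFAF3 were kept on the arrays labelled HepG2 only.

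On the arrays labelled HepG2 the respiratory chain genes were higher in ADARkd than in SCR. The median difference was 0.39 over the 58 kept genes, against 0.11 over all 7116 kept genes. Of the 58, 50 lay above 0, where 60.9% of all kept genes did, and 45 lay above the median of all kept genes. At least 1.5-fold higher were 16 genes, against a background of 12.4% of all kept genes, and 1 was at least 1.5-fold lower, against 5.73%. At least 2-fold higher were 2, UQCR10 and SDHC, against 2.46%, and 0 were 2-fold lower, against 1.57%. In K562 these genes were centred on 0. Their median was -0.0042 over 56 kept genes, against -0.07 over all kept genes, with 28 above 0 (33.3% of all kept genes) and 28 below, and 37 above the median of all. Of the 56, 0 were 1.5-fold apart in either direction, where 0.267% of all kept genes were higher and 0.759% lower by that much (0.0281% and 0.126% at 2-fold). In bulk RNA a different share of cells and a different amount of RNA per cell cannot be told apart.

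**Figure D1:**
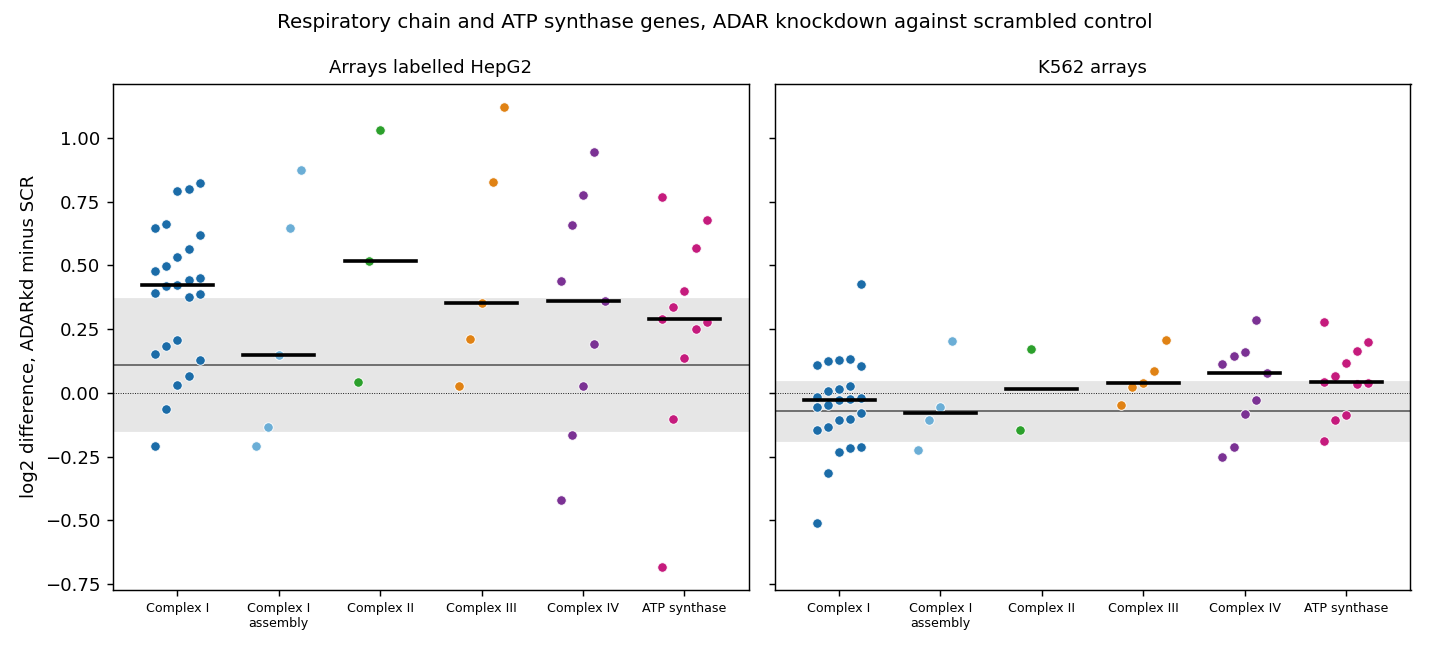
Log2 difference, ADARkd minus SCR, of each kept gene (points) by complex on the arrays labelled HepG2 (left) and in K562 (right), with the median of each complex as a black bar; the grey line and band give the median and the middle 50% of all 7116 kept genes. On the left the medians of complexes I, II, III and IV and ATP synthase lie above the grey line at 0.11, and on the right all points lie between -0.51 and 0.43.

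As deposited, the kept genes as a whole lay higher in ADARkd on the arrays labelled HepG2, by an amount that depends on the scaling. Over all transcript clusters the median intensity was 36.7 in SCR and 36.1 in ADARkd, with a log2 SD of 1.88 and 1.95. The respiratory chain genes were brighter than all kept genes there, with a median level in SCR of 7.35 against 6.88. Centring set each array on the median of the genes kept in either line. After quantile normalization, loess or centring, the median of all kept genes was 0.0009, 0.0032 and -0.0052. That of the respiratory chain genes was 0.28, 0.25 and 0.28. The number above 0 was then 45, 44 and 45 of 58. The split of 16 higher and 1 lower at 1.5-fold became 11 and 1, 10 and 2, and 10 and 1, while that of all kept genes went from 879 higher and 408 lower to 587 and 560, 625 and 552, and 582 and 585. Of the 17 genes past 1.5-fold, 11 stayed past it under all 3 scalings. Fibroblast markers moved on the same arrays: 4 of their 6 kept genes were at least 2-fold lower in ADARkd and 2 were at least 1.5-fold higher. Of those lower, COL1A1, COL3A1 and FAP lay under the filter level in ADARkd. The summed intensity of all 9 was 1521 in SCR and 1736.3 in ADARkd. Their part in the respiratory chain differences was not tested.

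**Figure D2:**
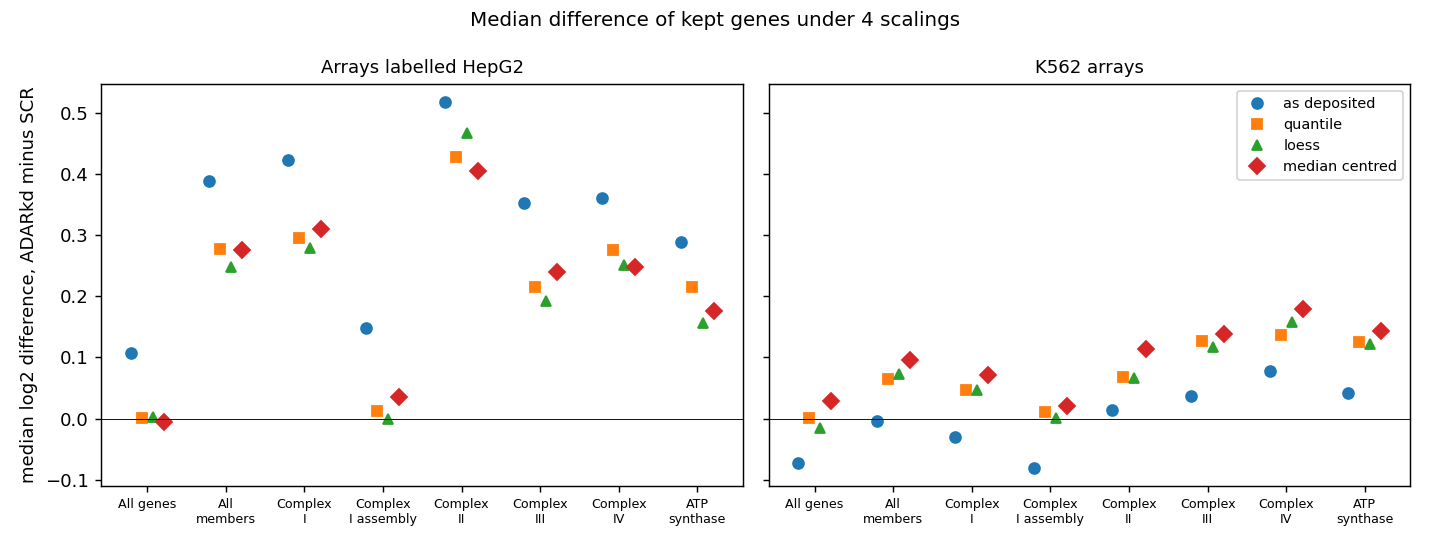
Median log2 difference, ADARkd minus SCR, of all kept genes, of the respiratory chain genes together (all members) and of each complex, under 4 scalings of the arrays (symbols), on the arrays labelled HepG2 (left) and in K562 (right). On the left the symbols of all genes drop from 0.11 to near 0 while those of all respiratory chain genes stay between 0.25 and 0.39.

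Complex I, which oxidises NADH, had a median difference of 0.42 over 25 kept subunits on the arrays labelled HepG2. As deposited 23 lay above 0 (92%, against 60.9% of all kept genes) and 6 were at least 1.5-fold higher (24%, against 12.4%). Under each of the 3 other scalings 21 lay above 0. At least 1.5-fold higher were then 3 (12%), against 8.18% to 8.78% of all kept genes. NDUFA9, an accessory subunit at the junction of the matrix and membrane arms, stood at 8.45 in SCR and 9.28 in ADARkd there, and at 8.79 and 8.92 in K562. NDUFA8, a subunit on the intermembrane side, stood at 6.74 and 7.54, and at 8.52 and 8.50 in K562. Both genes were higher in the knockdown array of the first line (differences of 0.82 and 0.80), while the K562 arms differed by 0.13 and -0.02.

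NDUFA6, a member of the LYR protein family, stood at 7.52 and 8.31 on the arrays labelled HepG2 and at 8.29 and 8.32 in K562. NDUFAB1, the mitochondrial acyl carrier protein that such LYR proteins bind, stood at 7.07 and 7.73, and at 8.33 and 8.20. The first of these was higher in ADARkd by 0.79 and the other by 0.66 on the arrays labelled HepG2. NDUFB10 (0.65), of the membrane arm, and NDUFA12 (0.62) completed the genes at least 1.5-fold higher. After quantile normalization, loess or centring, NDUFAB1, NDUFB10 and NDUFA12 lay under 1.5-fold, at 0.46 to 0.55.

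The 4 measured core subunits of complex I, whose counterparts exist in bacteria, ran from 0.18 to 0.53 on the arrays labelled HepG2. The 21 kept accessory ones had a wider range, as more genes tend to have, and the difference in spread was not tested. NDUFV1, which binds NADH and flavin, stood at 8.72 and 9.16 on the arrays labelled HepG2, a difference of 0.44. NDUFS3 differed by 0.53, and NDUFS8 and NDUFS7, which hold iron-sulfur clusters near the ubiquinone site, by 0.39 and 0.18. Their median was 0.41, and that of the 21 kept accessory subunits 0.42, with a range from -0.21 in NDUFA7 to 0.82 in NDUFA9. The only other subunit below 0 was NDUFA11, at -0.06. NDUFB1 and NDUFB5, both of the membrane arm, lay at 0.07 and 0.03 as deposited and below 0 under each of the 3 other scalings.

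Factors that build complex I were uneven. NDUFAF1, a chaperone of early assembly, stood at 6.40 in SCR and 7.27 in ADARkd on the arrays labelled HepG2, a difference of 0.87, and at 7.20 and 7.15 in K562. NDUFAF4, another assembly factor, stood at 5.42 and 6.06 (0.65), and at 6.83 and 7.03 in K562 (0.20). NDUFAF6 lay lower in ADARkd in both lines, by differences of -0.21 and -0.22, and NDUFAF3 differed by -0.13 on the arrays labelled HepG2. The median of the 5 kept factors was 0.15, near that of all genes, and 0 to 0.04 under the other scalings.

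In complex II, which links the citrate cycle to the chain, the membrane anchors differed more than the catalytic subunit. SDHC, an anchor that helps to hold the heme and the ubiquinone site, stood at 5.90 in SCR and 6.93 in ADARkd on the arrays labelled HepG2 and at 4.28 and 5.26 in K562. It was thus about as much higher in both lines (1.03 and 0.98, or 2.05-fold and 1.97-fold), but neither K562 value reached the filter level of 5.28, and values that dim may be set by background. SDHD, the other anchor, stood at 6.20 and 6.72 (0.52), and at 5.62 and 5.79 in K562 (0.17). SDHA, the flavoprotein that oxidises succinate, stood at 10.7 in both arms of the first line, a difference of 0.04, or -0.13 with loess and -0.07 with centring. Both SDHA and SDHC have pseudogenes that probes may not tell from the genes, which makes these values uncertain.

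In complex III, 2 of the small accessory subunits, UQCR10 and UQCRQ, had the largest differences on the arrays labelled HepG2. UQCR10 stood at 7.26 in SCR and 8.39 in ADARkd, the highest difference of all 58 genes (1.12, or 2.18-fold), and at 8.55 and 8.64 in K562. UQCRQ, which lies beside cytochrome b, stood at 7.58 and 8.41 (0.83), and at 8.06 and 8.27 in K562 (0.21). The third small subunit, UQCR11, differed by 0.35, nearer to the core protein UQCRC1 than to UQCRQ. The core proteins UQCRC1 and UQCRC2 differed by 0.21 and 0.03, and UQCRC2 turned negative under the 3 other scalings (-0.07 to -0.15). The small subunits and the core proteins number 3 and 2 genes, and the difference between them was not tested.

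Complex IV, cytochrome c oxidase, had a median of 0.36 over 9 kept subunits on the arrays labelled HepG2. COX7B stood at 7.29 in SCR and 8.24 in ADARkd (0.95), and at 7.99 and 8.07 in K562. COX6B1, which joins the monomers of the dimer on the intermembrane side, stood at 9.05 and 9.83 (0.78), and at 10.2 and 10.3 in K562. COX8A, at 7.56 and 8.22, differed by 0.66, or by 0.49 to 0.55 after the other scalings. Of the 9 subunits 7 lay above 0 (77.8%, against 60.9% of all kept genes), COX6C (0.44) and COX5B (0.36) among them. Under each of the 3 other scalings 6 did (66.7%), against 49.4% to 50.3% of all kept genes. COX7A2L, a relative of the COX7A subunits known for joining complexes III and IV in supercomplexes, was lower, at 9.45 and 9.03 (-0.42), and COX5A, the early assembling subunit, differed by -0.17. COX4I1, the general form of the largest nuclear subunit, differed by 0.03, with a negative sign in the other scalings.

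ATP synthase had a median of 0.29 over 11 kept genes on the arrays labelled HepG2. Of the catalytic F1 head, the measured subunits ATP5F1A (alpha), ATP5F1C (gamma) and ATP5F1D (delta) differed by 0.29, 0.34 and 0.25. The clusters of ATP5F1B (beta) and ATP5F1E (epsilon) are shared with other genes and were not used here. The c-ring, which turns as protons pass, is encoded by 3 genes for the same mature protein, and these differed in opposite directions. ATP5MC1 stood at 5.04 in SCR, under the filter level, and 5.81 in ADARkd, a difference of 0.77. ATP5MC2 stood at 7.67 and 6.99, the lowest difference of the 58 genes (-0.68, 1.60-fold lower). ATP5MC3 stood at 7.33 and 7.47 (0.14, and -0.02 to 0.03 in the other scalings). In K562 the 3 differed by 0.20, 0.04 and 0.12. Because the 3 genes share coding sequence, probes of one may also catch the others, and how the signal divides among them is uncertain.

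Of the other Fo and stalk genes on the arrays labelled HepG2, ATP5MJ, a small membrane subunit, stood at 7.62 and 8.29 (0.68, or 0.52 to 0.56 in the other scalings). ATP5PF (0.57) and ATP5PB (0.40), both of the peripheral stalk, were also higher in ADARkd, and ATP5PO, which ties that stalk to the head, differed by -0.10. ATP5IF1, which blocks the enzyme when it runs backwards, stood at 6.54 and 6.82, a difference of 0.28, against -0.19 in K562.

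**Figure D3:**
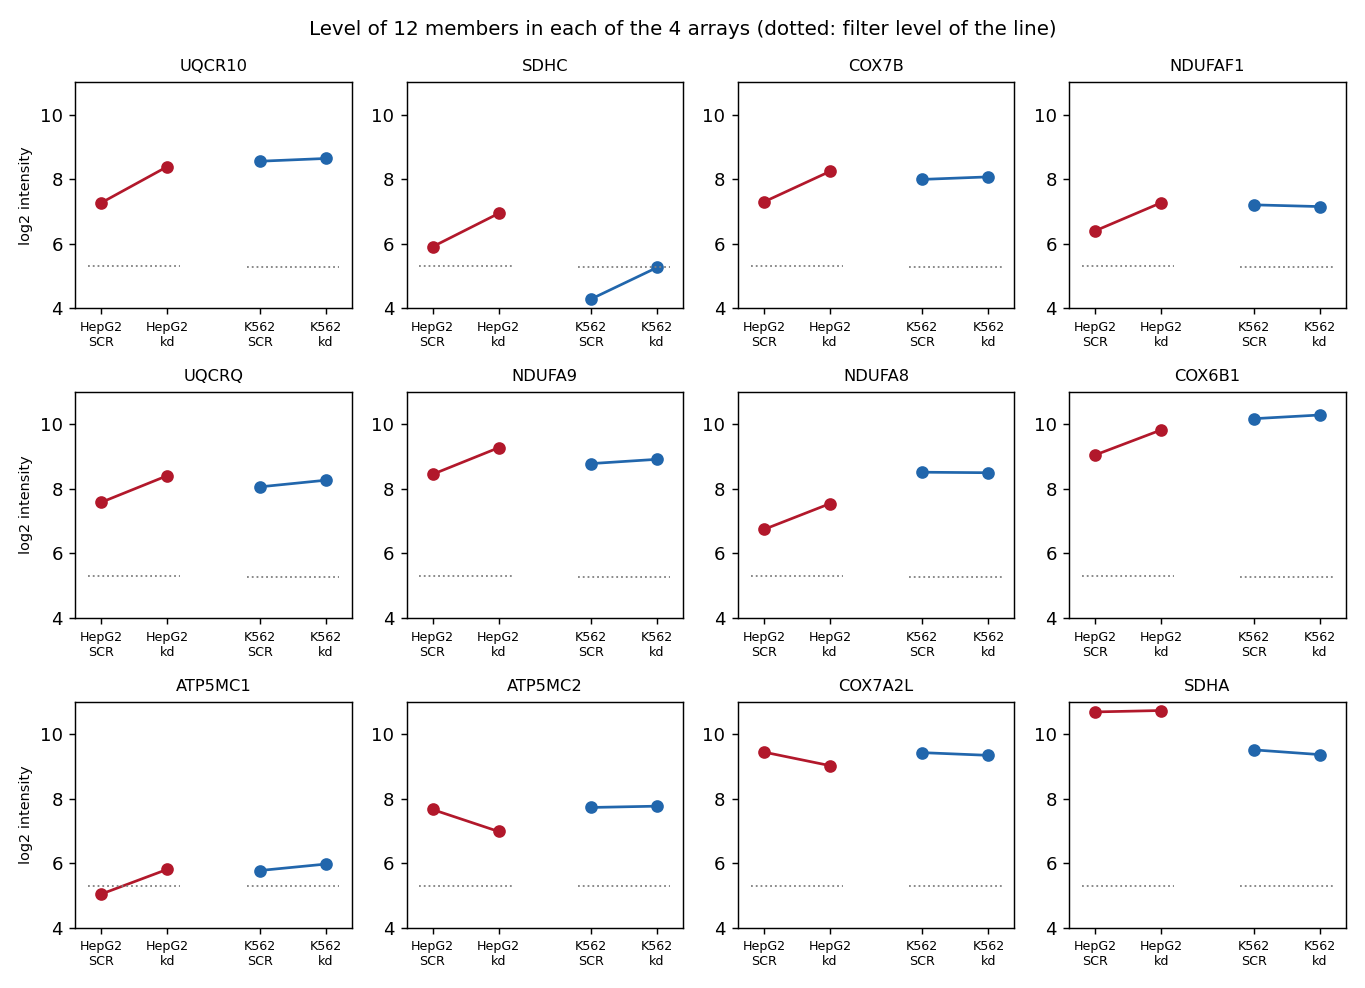
Log2 intensity of 12 genes in each of the 4 arrays, with 1 array per point; red joins SCR and ADARkd (kd) of the arrays labelled HepG2, blue those of K562, and the dotted lines mark the filter level of each line. The red lines climb for UQCR10, SDHC, COX7B, NDUFAF1, UQCRQ, NDUFA9, NDUFA8, COX6B1 and ATP5MC1 and descend for ATP5MC2 and COX7A2L, and those of SDHA are nearly flat; among the blue lines that of SDHC is the steepest.

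In K562 the differences of single genes were small, and some of the extremes belonged to complex I. NDUFA1, a membrane subunit needed for assembly, was the highest of the 56 kept genes, at 7.07 in SCR and 7.50 in ADARkd (0.43), and differed by 0.45 on the arrays labelled HepG2. NDUFB1 was the lowest, at 6.87 and 6.36 (-0.51). NDUFA2 followed at -0.31, COX7A2 stood at -0.25, and COX5B (0.29), ATP5MJ (0.28), UQCRQ (0.21) and NDUFAF4 (0.20) lay at the other end. By complex, the medians were -0.03 for complex I, -0.08 for its assembly factors, 0.01 for complex II, 0.04 for complex III, 0.08 for complex IV and 0.04 for ATP synthase. Under quantile normalization, loess and centring the median of all 56 was 0.07, 0.07 and 0.10, and those of complex I and its assembly factors were no longer negative.

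The lines were then set side by side, and both arms were put into 1 model with line and arm as terms. Of 56 genes kept in both lines, 24 lay above 0 in both, where 20.9% of the 6204 genes kept in both did, and 3 lay below 0 in both. Another 25 lay above 0 on the arrays labelled HepG2 and below 0 in K562, as did 41.4% of all 6204. The signed difference was higher on the arrays labelled HepG2 for 50 of the 56, as for 68.1% of all 6204; in size some of these, such as NDUFB1, NDUFB5 and SDHA, differed more in K562. Arms at least 1.2-fold apart in opposite directions were seen for 1 of the 56, NDUFA2 (0.39 and -0.31), against 5.53% of all 6204. Across these genes, which are not replicates and share their arrays, the differences of the lines correlated at r = 0.273, against 0.0329 over all genes kept in both. By limma with Benjamini-Hochberg adjustment over all genes, ADAR itself did not pass (shared effect -1.45 ± 0.22 SE, limma unadjusted p = 0.00014, adjusted p = 0.87). A lack of calls in this fit therefore says little about any gene. The adjusted p was under 0.05 for 0 of 56 respiratory chain genes and 0 of all 6204. At an unadjusted p under 0.05 there were 1 and 179 (2.89%), and the 1 was ATP5MC1, with a shared effect of 0.48 ± 0.20 (SE; limma unadjusted p = 0.0438, adjusted p = 1). ATP5MC1 was also the 1 kept gene with an array under the filter level (5.04 in SCR on the arrays labelled HepG2), so its mean passed there through ADARkd, where it is higher. The count of 1 became 7 after quantile normalization, 5 after loess and 8 with centring, with 0 past the adjusted p in each. The share of all genes at that unadjusted p is not given for these scalings, so the rise cannot be set against it. The model has 1 residual degree of freedom; a term for a different knockdown effect in each line would use it up, so that difference was not tested.

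Besides SDHC, the genes whose smaller difference was largest in the same direction in both lines were NDUFA1, COX5B, ATP5MJ, NDUFAF6, UQCRQ, NDUFAF4, ATP5MC1, SDHD and COX8A. Of these NDUFAF6 alone was lower in ADARkd. NDUFA1 had the largest smaller difference among genes kept in both lines (0.45 and 0.43), with a shared effect of 0.44 ± 0.21 (SE; limma adjusted p = 1). COX5B, a zinc-binding subunit of complex IV, stood at 6.34 and 6.70 on the arrays labelled HepG2 and at 6.93 and 7.22 in K562 (0.36 and 0.29).

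**Figure D4:**
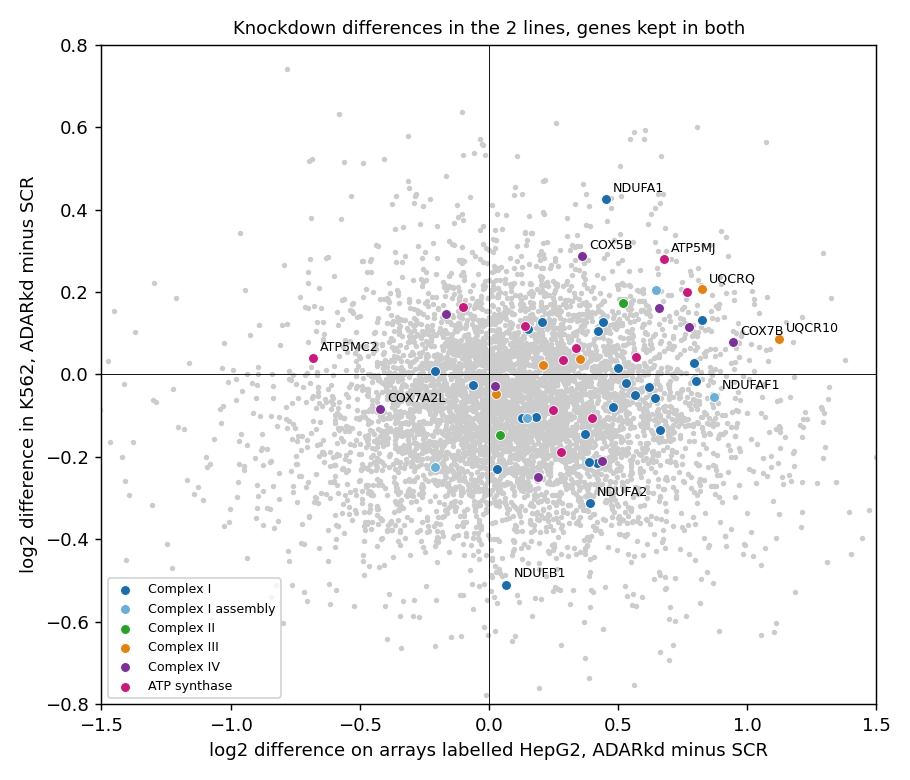
Log2 difference, ADARkd minus SCR, on the arrays labelled HepG2 (horizontal) against K562 (vertical) for the 56 respiratory chain genes kept in both lines (coloured by complex) and all other kept genes (grey; 36 of the 6204 lie outside the axes). The coloured points spread to the right along the horizontal axis, to 1.12 for UQCR10, and stay within 0.51 of 0 on the vertical axis.

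Other mitochondrial gene lists were also measured on the arrays labelled HepG2. Proteins of the mitochondrial ribosome, which translates the subunits encoded by mitochondrial DNA, had a median of 0.41 over 60 kept genes. Of these 54 lay above 0 (90%, against 60.9% of all kept genes). At least 1.5-fold higher were 16 (26.7%, against 12.4% of all kept genes) and 0 were lower by that much (against 5.73%). Translocases that import mitochondrial proteins had 0.41 over 13, and enzymes of the citrate cycle and pyruvate dehydrogenase 0.34 over 15. Assembly factors outside the NDUFAF family had 0.30 over 31, with 5 at least 1.5-fold higher (16.1%) and 1 lower (3.23%), near the shares of all kept genes. Regulators of mitochondrial genes had 0.10 over 9, beside 0.11 over all kept genes. In K562 the medians of these 5 lists were -0.01, 0.10, -0.01, -0.02 and -0.02. Whether the respiratory chain genes differ from these lists was not tested.

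Among the assembly factors on the arrays labelled HepG2, BCS1L, which inserts the Rieske protein into complex III, stood at 5.83 and 7.05, a difference of 1.23. TACO1, an activator of translation of a complex IV subunit made in the mitochondrion, differed by 0.84, TMEM126B of complex I assembly by 0.67 and the heme A enzyme COX10 by 0.61. UQCC3 of complex III assembly stood at 5.17 in SCR, under the filter level, and 5.85 in ADARkd, so it was kept through ADARkd. COX20, a chaperone of complex IV, was lower (-0.69). Among the regulators, TFB2M and TFAM, both needed for transcription of mitochondrial DNA, differed by 0.81 and 0.70. The nuclear factor NRF1 (-0.05), its coactivator PPRC1 (0.17), PPARGC1B (-0.37) and ESRRA (-0.09) lay under 1.5-fold. So did the rest of the kept regulators, POLRMT (0.10), TWNK (0.38) and POLG2 (-0.12). Of 15 regulators listed, only 10 were measured by a single-symbol cluster, and GABPA, GABPB1 and YY1 were not among them. Of the cytochromes, CYCS differed by 0.51 and CYC1 of complex III by 0.10.

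Many promoters of this gene family are known to bind the factor NRF1 and the ETS factor GABP, so the 250 bases before the start of each gene were searched for 4 motifs on both strands, with exact matches counted. RefSeq (build GRCh38.p14) gave a promoter for 59 of the 71 genes. The NRF1 motif stood in 11 of them (18.6%), against 7.65% of 15843 protein-coding promoters. The letters CCGGAAG, of ETS sites, stood in 12 (20.3%) against 11.8%, the YY1 motif in 1 (1.69%) against 0.41%, and GGGCGG, of SP sites, in 29 (49.2%) against 56.0%. The NRF1 motif nearly equals its own reverse complement, so 1 site can match on both strands, and each promoter was counted as 1. Within the family the NRF1 motif stood in 3 of 15 promoters of genes at least 1.5-fold higher on the arrays labelled HepG2 (20.0%) and in 7 of 35 of the other kept genes (20.0%). The ETS letters stood in 4 of 15 (26.7%) and 7 of 35 (20.0%), and the SP letters in 5 of 15 (33.3%) and 20 of 35 (57.1%).

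The promoters below belong to genes at least 1.5-fold higher in ADARkd on the arrays labelled HepG2 as deposited (NDUFA12, ATP5MJ and COX8A lay under 1.5-fold after each of the 3 other scalings) and hold one of these matches within 120 bases of the start. They are shown because they let the placing of the matches be compared: in NDUFA9, NDUFA12 and ATP5MJ the capitals mark the NRF1 motif, and in UQCRQ, COX6B1 and COX8A they mark the ETS motif, which lies within 54 bases of the start. Each runs 5′ to 3′ along the gene and ends at the base before its start.
NDUFA9 (chr12:4648994-4649113, plus strand): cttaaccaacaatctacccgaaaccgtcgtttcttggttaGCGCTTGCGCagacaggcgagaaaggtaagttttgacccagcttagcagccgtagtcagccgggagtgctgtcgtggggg
NDUFA12 (chr12:95003698-95003817, minus strand): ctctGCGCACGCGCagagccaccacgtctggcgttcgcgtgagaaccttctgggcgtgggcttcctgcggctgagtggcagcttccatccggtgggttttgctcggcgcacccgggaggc
ATP5MJ (chr14:103921530-103921649, minus strand): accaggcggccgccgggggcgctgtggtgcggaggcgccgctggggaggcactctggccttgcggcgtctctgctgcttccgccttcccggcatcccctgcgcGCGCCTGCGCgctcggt
UQCRQ (chr5:132866522-132866641, plus strand): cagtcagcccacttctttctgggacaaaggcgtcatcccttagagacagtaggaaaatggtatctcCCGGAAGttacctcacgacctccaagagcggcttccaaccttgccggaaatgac
COX6B1 (chr19:35648203-35648322, plus strand): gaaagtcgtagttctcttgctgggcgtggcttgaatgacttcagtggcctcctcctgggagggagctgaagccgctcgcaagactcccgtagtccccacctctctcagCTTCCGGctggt
COX8A (chr11:63974500-63974619, plus strand): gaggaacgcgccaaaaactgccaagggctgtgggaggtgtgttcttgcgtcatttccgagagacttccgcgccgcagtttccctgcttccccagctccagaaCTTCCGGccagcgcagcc

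The limma model also gave the difference between the lines, K562 minus HepG2, for genes that passed the filter in at least 1 of them. The respiratory chain genes tended to be higher in K562: 44 of 58 lay above 0, where 52.2% of 8028 genes did, and their median difference was 0.43, against 0.05 over all genes. Past an adjusted p under 0.05 and a 2-fold difference, 4 were higher in K562, against a background of 10.3%, and 2 were higher on the arrays labelled HepG2, against 14.7%, so the shares called were not above those of all genes. The 2 are SDHA and SDHC, and SDHC entered only through the line where it is high; with the filter at the 75th percentile SDHC is not tested and the 2 become 1. Without the 2-fold bound 19 of the 58 were higher in K562, where 19.5% of all genes were. Another 5 of the 58, SDHC included, were higher on the other arrays, where 22.5% of all genes were. Without that bound the share higher in K562 was thus above that of all genes, and the other share below it.

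Genes higher in K562 came from several complexes. ATP5MC3, of the c-ring, stood at 8.77 and 8.88 in K562 against 7.33 and 7.47 and was higher by 1.42 ± 0.20 (SE, 2 arrays per line; limma adjusted p = 0.00127). NDUFA8 was higher by 1.37 ± 0.25 (limma adjusted p = 0.00467), NDUFAF4 by 1.19 ± 0.21 (adjusted p = 0.00385) and UQCR11 by 1.09 ± 0.21 (adjusted p = 0.00553). The NDUFAF4 difference was 0.98 with log2(value + 16), under the 2-fold bound. In each of these 4 genes both K562 values lay above both values of the other line. The genes were called on these same values, so this adds no support to the calls.

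Complex II ran the other way in the 2 subunits kept in both lines, SDHA and SDHD, which were lower in K562. Pseudogenes that probes may not tell from the genes make the values of SDHA and SDHC uncertain. SDHA stood at 9.52 and 9.37 in K562 against 10.69 and 10.74, a difference of -1.27 ± 0.16 (SE; limma adjusted p = 0.000827). SDHC stood at 5.90 and 6.93 on the arrays labelled HepG2 against 4.28 and 5.26 in K562, but it passed the filter through the former alone, so no test of it is given. SDHD differed by -0.76 ± 0.20 (adjusted p = 0.0224), which passes the p but not the 2-fold bound. In complex I only NDUFS6 (-0.86 ± 0.22; adjusted p = 0.0185) and NDUFC2 (-0.83 ± 0.19; adjusted p = 0.0107) passed the limma p as lower in K562. Each line's arrays are 1 SCR and 1 ADARkd, so these errors rest on 1 residual degree of freedom and the spread across genes, not on replicate arrays.

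**Figure D5:**
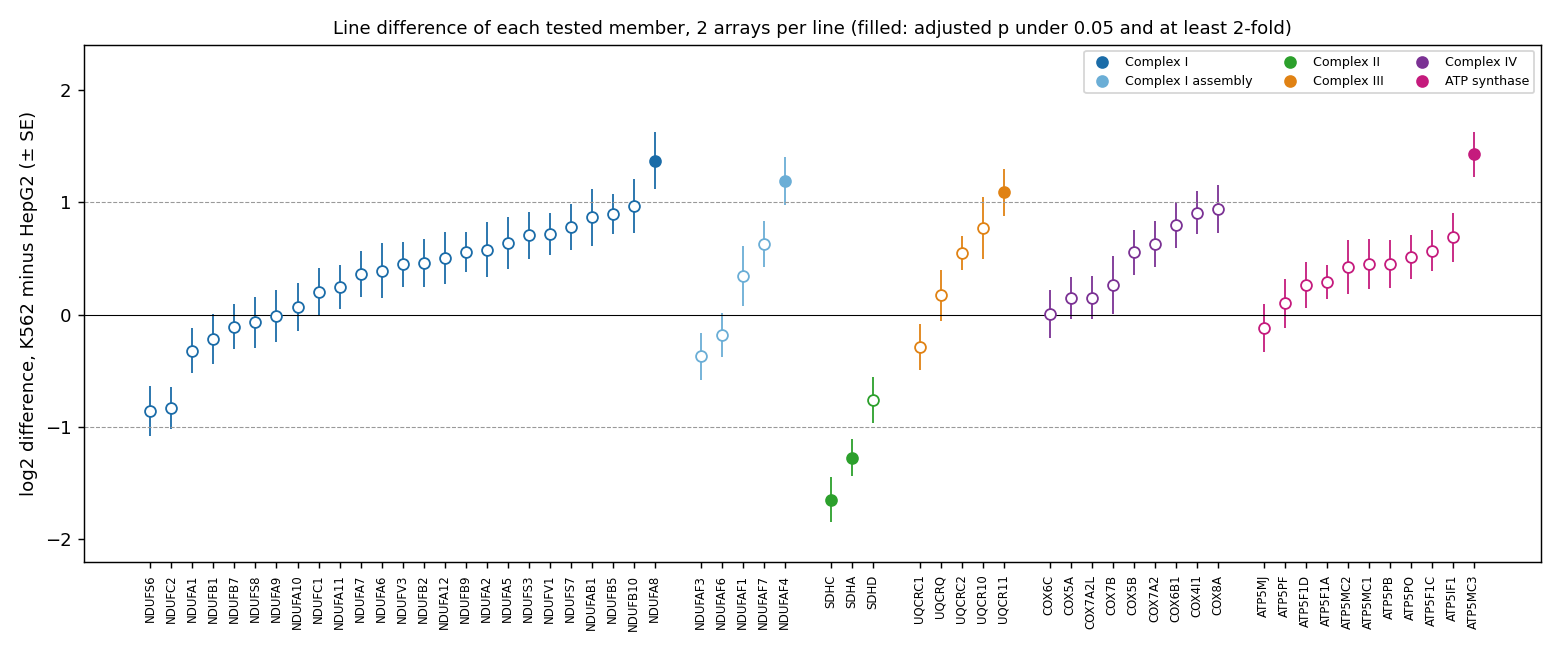
Log2 difference, K562 minus the arrays labelled HepG2, of the 58 tested genes by complex; points are estimates over 2 arrays per line, bars are ± 1 SE from the limma model, and filled points pass an adjusted p under 0.05 and the 2-fold bound (dashed lines). SDHC, filled, passed the filter only on the arrays labelled HepG2. All 9 complex IV genes lie above 0, where 52.2% of 8028 genes do. Of the 9, COX6C lies at 0.0065 and only 4 pass the adjusted p. All 3 complex II genes lie below 0.

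The promoters of SDHA and UQCR11 are shown because these genes passed the line comparison in opposite directions and both hold several NRF1 matches. That of SDHA carries 4, all in the direction of the gene, which begin 166, 117, 68 and 19 bases before the start. That of UQCR11 carries 2 matches of the NRF1 motif and 2 of the ETS motif. Capitals mark the matches, and no binding was measured.
SDHA (chr5:218070-218319, plus strand): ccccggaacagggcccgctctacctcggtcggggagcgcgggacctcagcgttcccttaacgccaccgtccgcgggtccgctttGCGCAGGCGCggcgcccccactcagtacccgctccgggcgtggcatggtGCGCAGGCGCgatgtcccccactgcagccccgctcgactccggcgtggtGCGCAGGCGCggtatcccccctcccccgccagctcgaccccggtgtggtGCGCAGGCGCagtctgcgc
UQCR11 (chr19:1605463-1605582, minus strand): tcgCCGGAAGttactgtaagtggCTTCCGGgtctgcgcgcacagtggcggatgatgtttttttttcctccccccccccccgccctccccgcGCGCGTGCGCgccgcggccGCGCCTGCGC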

How the data were processed

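Total RNA was hybridised to exon arrays, 1 per line and arm. The deposited values are linear intensity, 1 for each transcript cluster; the submitters' processing notes name RMA and the build hg18, and later steps are not given in the sources used here. No detection calls were analysed. Log2 was taken without an offset. Of 17881 clusters, 14432 had 1 gene symbol in the platform annotation, giving 14232 genes; 14404 symbols were found in RefSeq by Entrez number and 0 changed. COX7A2 alone of the genes described had 2 clusters.

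Differences within a line have no test. The model over 4 arrays used limma 3.58.1 in R 4.3.3 (intensity trend, two-sided, Benjamini-Hochberg over all kept genes). With 1 array per line and arm, a gene's residual in the model is how far its knockdown difference departs between the lines. That departure may be technical. P-values measure an effect against it and the spread across genes, not against a spread between replicates. Counts at 2-fold and 1.5-fold are past-threshold counts without a p. Figures used matplotlib 3.10.9.

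Genes named were those at least 1.5-fold apart in a line, the highest and lowest of each complex, the 10 with the largest smaller difference in both lines, those called between lines, and tissue isoforms with their counterparts; all others were named with their values in view. The genes, lists and motifs were chosen with earlier results of these data known. The NRF1 and YY1 motifs are given by name alone. Alternatives were 3 scalings, an offset of 16, other filters, the mean of clusters and no trend.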

Additional observations from a re-analysis of the deposited data

Results flagged for a closer look

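NDUFA2, an accessory subunit of complex I, was the 1 respiratory chain gene, of 56 kept in both lines, whose arms differed by at least 1.2-fold in opposite directions, as did 5.53% of all 6204 genes kept in both. It stood at 7.02 in SCR and 7.41 in ADARkd on the arrays labelled HepG2 (0.39), and at 7.95 and 7.63 in K562 (-0.31). The signs held under quantile normalization (0.26 and -0.20), loess (0.25 and -0.23) and centring (0.28 and -0.21). With 1 array per arm, the difference between the lines was not tested.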

How the results depend on the processing

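The median difference of the respiratory chain genes on the arrays labelled HepG2 was 0.39 as deposited, 0.28 after quantile normalization, 0.25 after loess and 0.28 with centring. Centring set each array on the median of the genes kept in either line. At least 1.5-fold higher were 10 genes after loess and after centring. Centring brought the median of all kept genes there to -0.0052. In K562 the median of the respiratory chain genes was 0.0965 after centring, and 1 gene, SDHC, was at least 1.5-fold higher with no filter on low values. Genes called between lines numbered 6, and 24 with no bound on the fold, because the bound was removed; they numbered 5 to 9 under the other settings. Under an unadjusted limma p of 0.05 in the shared model lay 1 gene, and 1 to 8 under the other settings, with 0 past the adjusted p in every one. The share of all genes at that unadjusted p is given for the deposited values alone. Of the remaining values, 556 moved by under 0.1 (counts by under 1.5 times) and 191 by more; causes were not tested. The mean of all clusters, an offset of 16 and both filters left the median on the arrays labelled HepG2 between 0.34 and 0.39. No paired analysis was possible because each group holds 1 array and the labels number no replicates; the model's line term already sets the arms against each other within a line. Values under the filter levels may be set by background.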
